A study of Mus musculus with 6 samples.

Results

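The expression of 10 checkpoint genes other than Pdcd1 and Cd274, which encode PD-1 and PD-L1, was described across the cells of the C3Tag mammary gland and its tumors. The genes were the receptors Ctla4, Icos, Tigit, Lag3, Havcr2 and Vsir and the ligands Cd80, Cd86, Pdcd1lg2 and Lgals9. They were chosen by name from a list of checkpoint receptors and ligands, and they are 10 of the 31055 features in the count matrices.

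Single-cell RNA sequencing (10x Genomics 3' libraries) had been performed on female C3Tag mice, which carry the C3(1) promoter driving the SV40 large T antigen on an FVB/NJ background. Whole mammary glands of mice 5 weeks old formed the Prepuberty state, whole glands of mice 14 weeks old that contained lesions like ductal carcinoma in situ formed the DCIS state, and palpable tumors of mice over 18 weeks old formed the Tumor state. Each state has 2 libraries, numbered 1 and 2 here as in the labels. All 3 states carry the transgene and no treatment is named, and no mice without the transgene are among the libraries. The promoter is known for epithelial expression. A change of state is also a change of age, and for Tumor a change from whole gland to a dissected tumor.

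Checkpoint receptors are surface proteins of T cells and other leukocytes that restrain or promote activation when they meet a ligand on a presenting cell, a tumor cell or stroma. CTLA-4, an inhibitor, and CD28, an activator, compete for the same ligands, CD80 and CD86, which dendritic cells, macrophages and B cells carry. TIM-3 (Havcr2) and LAG-3 are best known on persistently stimulated T cells, TIM-3 is also carried by myeloid cells, and VISTA (Vsir) is known for its abundance on myeloid cells.

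After removal of barcodes with few genes, high mitochondrial content or a doublet call, 21537 of 23835 barcodes and 237076023 unique molecular identifiers (UMIs, each counted as 1 captured transcript) were kept. The median UMI count per cell lay between 6568 and 13620 over the 6 libraries, and pairs of libraries shared between 0.275 and 0.826% of the barcodes of the smaller library. Cells were clustered without the 10 genes, and clusters were named "like" a cell type only from marker genes. This gave 469 T-cell-like, 1044 macrophage-like, 128 dendritic-like, 115 B-cell-like, 6385 epithelial-like, 1256 myoepithelial-like, 6225 fibroblast-like, 2279 endothelial-like, 375 pericyte- or smooth-muscle-like and 511 Schwann-like cells, with 2750 cells left unnamed. Unnamed cells made up 26.5 and 31.4% of Tumor 1 and Tumor 2, against 3.92 to 9.21% of the gland libraries. Of these, 1534 cells formed a cluster that scored highest for the epithelial list but passed none of its 9 markers. It held 882 cells of Tumor 1 and 549 of Tumor 2. The labels do not say that the libraries of a state came from separate animals, and the study calls them technical replicates in one place and specimens in another, so p-values here measure the spread between these libraries, which may be technical. The labels describe 1 digestion for glands and tumors and the study's methods another kit for tumors, and if the latter holds, dissociation and the Tumor state cannot be told apart.

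The 10 genes differed widely in abundance. Over all kept cells there were 26459 UMIs of Lgals9, 3244 of Vsir, 2014 of Cd86, 640 of Lag3, 538 of Cd80, 349 of Icos, 310 of Havcr2, 186 of Pdcd1lg2, 163 of Ctla4 and 9 of Tigit. These totals describe depth and are not compared between genes. Levels below are in CPM, the UMIs of a gene scaled to a total of 1000000 UMIs for the cell class in a library, which compares 1 gene across classes and libraries. Intervals in brackets are exact Poisson 95% intervals and cover counting error only.

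The genes were spread unevenly over the cell classes. Ctla4 and Icos were T-cell-like genes, with 87.1% and 92.3% of their UMIs in that class. Havcr2 (81.6% of its UMIs) and Cd86 (71.5%) were counted mainly in macrophage-like cells, although the mean level of Cd86 was higher in dendritic-like cells (528 against 246 CPM) and that of Havcr2 was alike in both (27.9 and 27.8). Cd80 and Pdcd1lg2 reached their highest level in dendritic-like cells, and Vsir and Lgals9 were spread over leukocytes, endothelium, epithelium and fibroblasts. The classes come from clustering the same cells, so the order of their levels is given as a description.

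**Figure D1:**
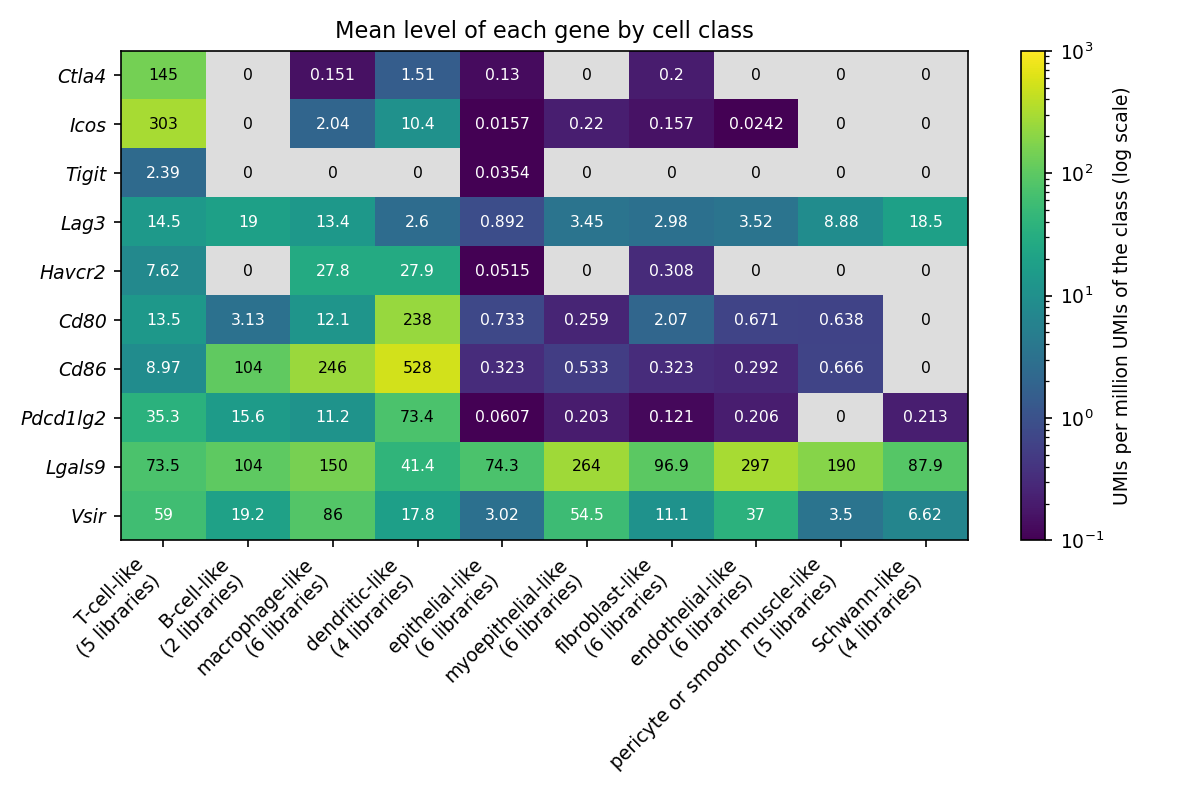
Heat map of the mean level of each of the 10 genes (rows) in each named cell class (columns), in CPM of the class, averaged over the libraries with at least 10 cells of the class, whose number is given for each class. Ctla4 and Icos stand out in T-cell-like cells (means of 145 and 303 CPM), Cd80 and Cd86 in dendritic-like cells (238 and 528), and Lgals9 in endothelial-like and myoepithelial-like cells (297 and 264).

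The sequence before the start of transcription is shown for Havcr2, Vsir, Pdcd1lg2 and Lgals9, because these 4 genes changed between states in a myeloid class below and RefSeq windows were at hand for them. Each line is the 250 bases upstream of the RefSeq start on GRCm38.p6, written 5' to 3' on the strand of the gene, with capitals for matches to a searched motif. Havcr2 is read from chr11:46454681-46454930 (forward strand), Vsir from chr10:60346601-60346850 (forward), Pdcd1lg2 from chr19:29410669-29410918 (forward) and Lgals9 from chr11:78984925-78985174 (reverse).
Havcr2: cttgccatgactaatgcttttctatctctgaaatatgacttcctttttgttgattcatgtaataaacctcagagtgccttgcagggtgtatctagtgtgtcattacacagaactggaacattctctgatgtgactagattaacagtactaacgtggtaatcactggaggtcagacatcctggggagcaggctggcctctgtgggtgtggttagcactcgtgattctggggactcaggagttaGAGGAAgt
Vsir: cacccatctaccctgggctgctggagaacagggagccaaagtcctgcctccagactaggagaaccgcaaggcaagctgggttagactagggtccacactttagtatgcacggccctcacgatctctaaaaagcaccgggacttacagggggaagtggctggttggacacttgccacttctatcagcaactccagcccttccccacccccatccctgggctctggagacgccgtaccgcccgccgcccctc
Pdcd1lg2: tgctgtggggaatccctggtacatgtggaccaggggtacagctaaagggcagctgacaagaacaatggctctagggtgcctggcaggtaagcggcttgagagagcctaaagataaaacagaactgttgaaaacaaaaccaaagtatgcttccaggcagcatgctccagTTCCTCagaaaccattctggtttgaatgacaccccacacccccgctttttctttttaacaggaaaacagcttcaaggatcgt
Lgals9: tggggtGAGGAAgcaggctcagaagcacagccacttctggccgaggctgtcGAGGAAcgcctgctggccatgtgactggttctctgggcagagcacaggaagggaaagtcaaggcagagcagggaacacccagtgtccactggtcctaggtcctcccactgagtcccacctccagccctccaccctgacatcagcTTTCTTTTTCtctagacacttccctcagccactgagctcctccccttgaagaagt
The searched motifs, on both strands, were GAGGAA (a core bound by PU.1, the myeloid ETS factor), GAAANNGAAA (interferon-stimulated response element), TTCNNNGAA (gamma-activated site) and GGGANNTTCC (NF-kB). Havcr2 had 1 GAGGAA 8 to 3 bases before the start, Pdcd1lg2 had 1 on the other strand 82 to 77 bases before it, and Lgals9 had GAGGAA at 244 to 239 and at 199 to 194 bases and a GAAANNGAAA match on the other strand at 55 to 46 bases. No match overlapped another, and the Vsir window held none. GAGGAA occurs in 23.3% of the 32851 windows of this length, GAAANNGAAA in 2.98%, TTCNNNGAA in 7.02% and GGGANNTTCC in 1.21%. A match is only a description of these letters. The windows of Ctla4, Tigit and Cd80 held no match, and those of Lag3, Cd86 and Icos were not used here.

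Ctla4, the inhibitory receptor of activated and regulatory T cells (GRCm38 chromosome 1, 60887000 to 60915832, forward strand), was at its highest in T-cell-like cells of Prepuberty 2 and at its lowest in those of Tumor 2. Its level was 299.9 CPM in Prepuberty 2 (66 UMIs in 19 cells), 157.8 in DCIS 1 (18 UMIs) and 144.8 in DCIS 2 (8 UMIs). It was 97.8 in Tumor 1 (42 UMIs) and 25.5 in Tumor 2 (8 UMIs in 4 cells). Prepuberty 1, with 8 T-cell-like cells and no Ctla4 UMI, was left out of every T-cell fit, which needed 10 cells, so the Prepuberty arm is 1 library assumed to vary like the others. The 3 states did not overlap in these 5 libraries. For Tumor against Prepuberty the log2 fold change was -1.97 (SE 0.64) with an unadjusted p of 0.0075, and after Benjamini-Hochberg adjustment over all genes tested in the class (edgeR quasi-likelihood F test) it did not pass, at 0.436. The fold was -1.31 without Tumor 2 and -3.44 without Tumor 1, and over all 18 alternatives the adjusted p lay between 0.00219 and 0.841, with 1 past the threshold. With the replicate number as a block that 1 was -2.84. Pairing by number could be read in this class only between DCIS and Tumor. There the deviations of same-numbered libraries from their state means correlated at -0.01.

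The order of the libraries in the share of cells with a Ctla4 UMI was the same with and without equal depth. For equal depth, cells under 2000 UMIs were left out and the others thinned to 2000 UMIs. This kept 35 of the 96 T-cell-like cells of Prepuberty 2 and 7 of the 30 of DCIS 2. A Ctla4 UMI was then found in 25.7% of the kept cells in Prepuberty 2 (9 of 35), 25% in DCIS 1 (5 of 20) and 42.9% in DCIS 2 (3 of 7). In Tumor 1 the share was 11.7% (9 of 77) and in Tumor 2 it was 2.99% (2 of 67). Unthinned, the shares were 19.8, 19.6, 23.3, 13.1 and 3.88% at median depths of 1221 to 2543 UMIs. In fibroblast-like cells, which should lack the gene, the thinned share was at most 0.163% in any library at median depths of 6861 to 14787 UMIs. Outside T-cell-like cells Ctla4 was most counted in epithelial-like cells, with 13 UMIs, of which 11 lay in 1 cell of DCIS 2.

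The makeup of the T-cell-like class differed between libraries. Foxp3, the factor that defines regulatory T cells, was at 118 CPM in Prepuberty 2, 8.77 in DCIS 1, 72.4 in DCIS 2, 23.3 in Tumor 1 and 3.19 in Tumor 2. Prepuberty 2 was highest and Tumor 2 lowest for both Foxp3 and Ctla4, while the 3 libraries between them were in another order, on 1 to 10 Foxp3 UMIs each. The natural killer marker list, with none of its 6 markers at 0, summed to 245 to 398 CPM in the other libraries and to 1755 in Tumor 2, and the macrophage list to 118 to 367 and to 750 in Tumor 2. Their part in the Ctla4 difference was not tested.

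Added up over the states, T-cell-like cells with a Foxp3 UMI held the most Ctla4, and 11 of these 20 cells were from Prepuberty. In the 20 cells the level was 491 CPM (364 to 650), with 49 UMIs in 14 cells, whereas in 92 cells with a Cd8a or Cd8b1 UMI and no Foxp3 UMI it was 39.9 (10 UMIs in 7 cells). In 37 cells with a Cd4 UMI alone it was 134 (14 UMIs), and in the other 320 cells it was 99.4 (69 UMIs). The 11 Foxp3 cells of Prepuberty held 36 of the 66 Ctla4 UMIs of that state. By state the Foxp3 cells were at 637 CPM in Prepuberty and 384 in Tumor, above every other subset of the state, but at 175 in DCIS (36.1 to 511), against 187 in DCIS cells with none of the markers. The 3 such cells of DCIS held 3 UMIs and the 6 of Tumor held 10, so most Ctla4 UMIs of those states were in T-cell-like cells without a detected Foxp3 UMI. Of 64 cells with a Ctla4 UMI 21.9% also had a Foxp3 UMI, against 1.48% of the other 405, at median depths of 2548 and 1825 UMIs.

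Icos, the co-stimulator of activated T cells that lies beside Ctla4 (chromosome 1, 60977927 to 61000320, forward strand), showed no such order. Its level in T-cell-like cells was 313.5 CPM in Prepuberty 2 (69 UMIs), 447.2 in DCIS 1 (51), 289.6 in DCIS 2 (16), 342.2 in Tumor 1 (147) and 124.4 in Tumor 2 (39). The states overlapped, with Tumor 2 below the rest. On the log2 scale the fold change was 0.46 (SE 0.67) for DCIS against Prepuberty, -0.61 (SE 0.54) for Tumor against DCIS and -0.15 (SE 0.64) for Tumor against Prepuberty, with adjusted p-values of 0.967, 0.724 and 0.966. Over all states Icos was at its highest in the cells with a Foxp3 UMI, at 682 CPM (530 to 865), with a UMI in 18 of 20 cells. It was at 478 in cells with a Cd4 UMI alone, 258 in cells with none of these markers and 99.8 in cells with a Cd8a or Cd8b1 UMI. In DCIS alone the 3 Foxp3 cells were at 291 (94.6 to 680), below cells with a Cd4 UMI alone at 530 and cells with none of the markers at 392. Of 121 cells with an Icos UMI 14.9% had a Foxp3 UMI, against 0.575% of the other 348. Outside T-cell-like cells the highest level was 30.3 CPM in dendritic-like cells of Prepuberty 2, from 4 UMIs.

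**Figure D2:**
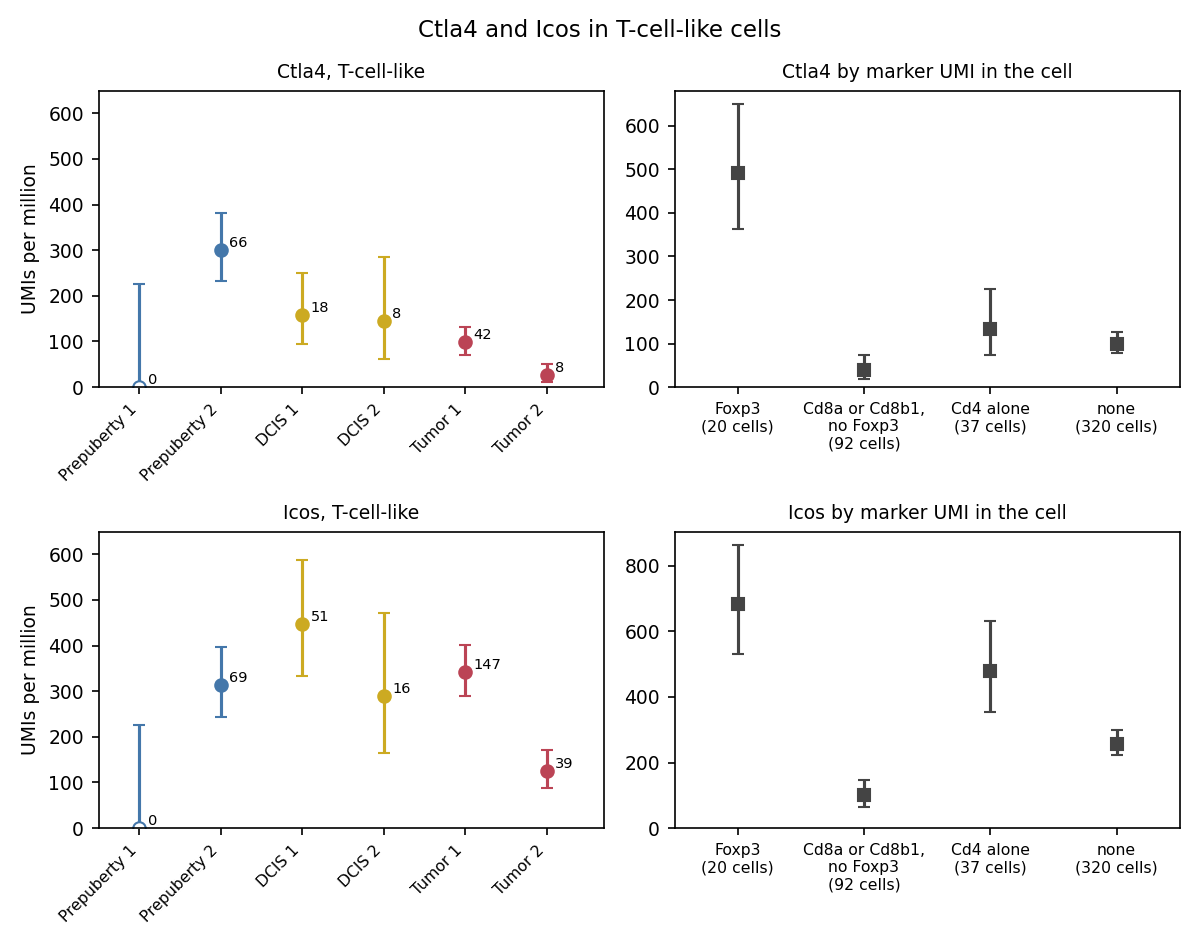
Ctla4 and Icos in T-cell-like cells, in CPM of the class, by library and by which of Foxp3, Cd8a or Cd8b1, and Cd4 a cell had a UMI of. Bars are exact Poisson 95% intervals and the numbers beside the points are UMIs. Ctla4 runs from 299.9 in Prepuberty 2 to 25.5 in Tumor 2, Icos lies between 289.6 and 447.2 in 4 libraries and at 124.4 in Tumor 2, and both are highest in the Foxp3 cells when the states are added up, as plotted, though not in DCIS alone.

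Tigit, an inhibitory receptor of T and natural killer cells (chromosome 16, 43648867 to 43664146, reverse strand), was hardly detected. T-cell-like cells held 2 of its 9 UMIs, 1 each in DCIS 1 and Tumor 2, epithelial-like cells held 5 and unnamed cells 2. At this depth no difference between classes or states could be seen, and Tigit passed the filter on low counts in no class.

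Lag3, which binds MHC class II (chromosome 6, 124904361 to 124911705, reverse strand), was not concentrated in T-cell-like cells, which held 2.81% of its UMIs. There it was at 18.2 CPM in Prepuberty 2 (4 UMIs), 18.1 in DCIS 2 (1), 14.0 in Tumor 1 (6) and 22.3 in Tumor 2 (7), with no UMI in Prepuberty 1 or DCIS 1. Fibroblast-like cells held 29.4% of the UMIs, epithelial-like cells 18.3% and macrophage-like cells 16.7%, but at mean levels of 2.98, 0.892 and 13.4 CPM. The mean level in T-cell-like cells, 14.5 ± 8.64 (SD, n = 5 libraries), did not differ beyond the spread from those in B-cell-like cells, 19.0 ± 9.25 (n = 2, from 4 UMIs), Schwann-like cells, 18.5 ± 14.0 (n = 4), or macrophage-like cells, 13.4 ± 7.13 (n = 6).

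Schwann-like cells, the myelinating and supporting cells of peripheral nerves, were among the classes with the highest Lag3 level. Their level in the glands was 37.8 CPM in Prepuberty 1, where 25 UMIs lay in 8 cells, and 18.8 in Prepuberty 2, where 22 UMIs lay in 10 cells. It was 11.8 in DCIS 1 (1 UMI) and 5.57 in DCIS 2 (3 UMIs), and the 8 Schwann-like cells of each tumor held none. In macrophage-like cells Lag3 was at 8.78 and 2.14 CPM in the Prepuberty libraries (4 UMIs and 1), 14.3 and 21.6 in DCIS (21 and 18) and 19.5 and 14.1 in Tumor (43 and 20). Both Prepuberty libraries were below all 4 others, but the log2 fold change for DCIS against Prepuberty, 1.80 (SE 0.76), had an adjusted p of 0.426 (edgeR quasi-likelihood F test).

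In macrophage-like cells 3 checkpoint genes changed between the young gland and the tumor. From Prepuberty to Tumor, Vsir and Havcr2 rose and Pdcd1lg2 fell, which is 3 of the 7 members tested in this class, against a background of 6.21% of all 7411 genes tested (145 genes or 1.96% higher and 315 or 4.25% lower, and 308 and 223 when library totals were used without TMM factors, a setting in which the same 3 members passed in the same directions). All 3 reached the filter on low counts, 8.90 CPM in 2 libraries, in both DCIS libraries. For DCIS against Prepuberty none of the 7 passed in edgeR (3 at an unadjusted p under 0.05, and none with DESeq2), against a background of 0.162%. For Tumor against DCIS none passed (2 at an unadjusted p under 0.05, and none with DESeq2), against 5.88%. The median log2 change of the 7 members was 0.67 for Tumor against Prepuberty, beside 0.08 for all genes. The 3 calls depended on single libraries: without Prepuberty 1 or without DCIS 2 none passed, without Prepuberty 2 or without DCIS 1 the 1 that passed was Havcr2, and without Tumor 1 there were 5. The 3 contrasts share libraries, so they are not independent.

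Vsir, whose product VISTA restrains T cells (chromosome 10, 60346851 to 60372684, forward strand), had in Prepuberty macrophage-like cells a level of 37.3 CPM in library 1 (17 UMIs) and 27.8 in library 2 (13 UMIs). In DCIS it was 76.7 (113 UMIs) and 96.1 (80 UMIs). In Tumor it was 125.3 (276 UMIs) and 152.6 (216 UMIs). The 3 states did not overlap. The log2 fold change was 1.63 (SE 0.39, adjusted p 0.0345) for Tumor against Prepuberty and 1.52 (SE 0.39, adjusted p 0.187) for DCIS against Prepuberty. For Tumor against DCIS it was 0.11 (SE 0.35), smaller than the difference in CPM, because the TMM factors (scaling factors from the bulk of the genes) differ between the 2 states. The call rested on single libraries: without Prepuberty library 1 the fold was 2.03 with an adjusted p of 0.0849, and without library 2 it was 1.28 with 0.215. Leaving out DCIS 1 or DCIS 2 kept the fold at 1.62 and 1.61 but also lost the call (0.0995 and 0.116). Shares of cells with a Vsir UMI were also taken with cells under 2000 UMIs left out and the others thinned to 2000 UMIs. They were 8.97 and 5.88% in Prepuberty, 13.9 and 18.1% in DCIS and 21.7 and 29.5% in Tumor. Unthinned, over all cells of the class, the shares kept the same order (13.3, 10.1, 30.6, 33.6, 46.0 and 64.0%, at median depths of 3941 to 8399 UMIs).

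Havcr2, which encodes TIM-3 (chromosome 11, 46454935 to 46481255, forward strand), was nearly absent from Prepuberty macrophage-like cells, with no UMI in library 1, where 3 counts would be 6.59 CPM, and 8.56 CPM in library 2 (4 UMIs). It was at 17.0 (25 UMIs) and 33.6 (28 UMIs) in DCIS. It was at 55.4 (122 UMIs) and 52.3 (74 UMIs) in Tumor. The 3 states did not overlap. The log2 fold change for Tumor against Prepuberty was 3.22 (SE 0.76, adjusted p 0.0338), and without Prepuberty 1 it was 2.39 with an adjusted p of 0.152. Without Prepuberty 2 it passed (adjusted p 0.0306), but the Prepuberty library that is left has no UMI, so that the fitted 8.88 has no base. For DCIS against Prepuberty it was 2.65 (SE 0.80, adjusted p 0.274). In dendritic-like cells Havcr2 followed a like order, with no UMI in either Prepuberty library, 2 in DCIS 1 (10.5 CPM), 3 in DCIS 2 (18.1), 16 in Tumor 1 (82.9) and 1 in Tumor 2 (30.9 in 8 cells). The Tumor against Prepuberty contrast there had an adjusted p of 0.168, and its fitted fold change has no base because Prepuberty is at 0. T-cell-like cells held 6 Havcr2 UMIs in all, and 4 of the 6 cells that carried them also had a Foxp3 UMI, at a median depth of 8518 UMIs against 1855 in the other T-cell-like cells. Endothelial-like, myoepithelial-like, Schwann-like and pericyte- or smooth-muscle-like cells held none.

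Pdcd1lg2, which encodes PD-L2, the second ligand of PD-1 (chromosome 19, 29410919 to 29471161, forward strand), went the other way. Its level in macrophage-like cells was 22.0 and 17.1 CPM in Prepuberty (10 and 8 UMIs), 10.2 and 12.0 in DCIS (15 and 10 UMIs) and 4.09 and 2.12 in Tumor (9 UMIs, and 3 UMIs in 1 cell). The 3 states did not overlap, although the counts are small. The log2 fold change was -2.95 (SE 0.65, adjusted p 0.0243) for Tumor against Prepuberty and -2.25 (SE 0.62, adjusted p 0.0562) for Tumor against DCIS. Without Prepuberty 1 the first was -2.59 with an adjusted p of 0.165, and leaving out any other library but Tumor 1 also lost the call (0.0553 to 0.0753). Without Tumor 1 the second passed (-3.08, adjusted p 0.0310).

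Cd86, the B7-2 ligand of CD28 and CTLA-4 (chromosome 16, 36603869 to 36666081, reverse strand), was the most counted of the B7 genes in macrophage-like cells and tended the same way. It was at 357.9 and 372.3 CPM in Prepuberty (163 and 174 UMIs), 318.3 and 188.6 in DCIS (469 and 157 UMIs) and 178.9 and 59.4 in Tumor (394 and 84 UMIs). The states did not overlap, but DCIS 2 was close to Tumor 1. The log2 fold change was -1.95 (SE 0.58, adjusted p 0.0746) for Tumor against Prepuberty and -1.57 (SE 0.57, adjusted p 0.115) for Tumor against DCIS, so neither passed. For Tumor against Prepuberty it passed with DESeq2 (-1.97, adjusted p 0.0449) and without a filter on low counts (-1.89, 0.00134), and for Tumor against DCIS without the filter (-1.56, 0.0137) but not with DESeq2. It passed for both without Tumor 1, which leaves Tumor 2 alone in its arm (-3.29 with an adjusted p of 0.00224, and -2.92 with 0.00511), whereas without Tumor 2 the folds were -1.28 (0.152) and -0.90 (0.273). Within the largest sub-cluster they were -0.63 (0.775) and -0.60 (0.718). With a replicate block the 2 contrasts gave -2.22 (0.0133) and -1.74 (0.0374). Among the other members in this class, Cd80 lay between 0 and 25.9 CPM and Lgals9 between 86.2 and 231, and neither passed in any contrast.

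**Figure D3:**
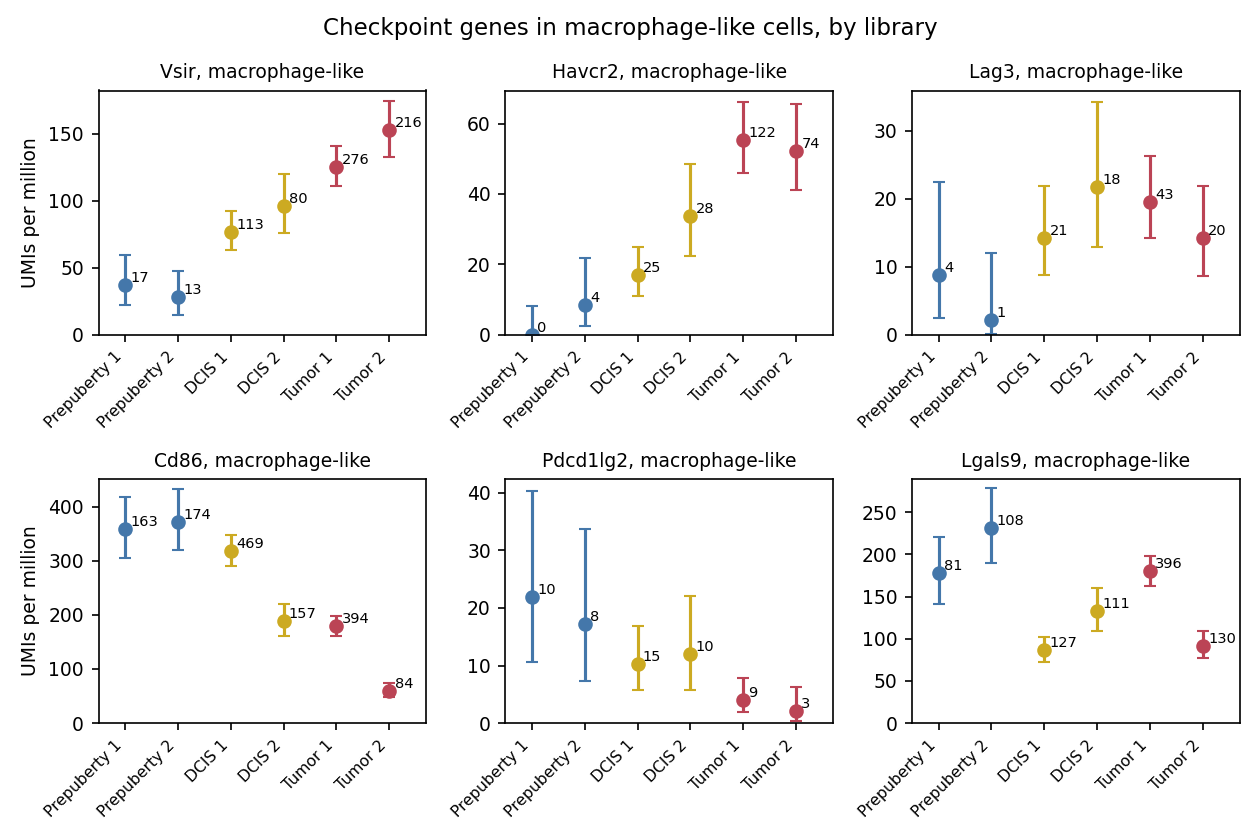
Levels of Vsir, Havcr2, Lag3, Cd86, Pdcd1lg2 and Lgals9 in macrophage-like cells of each library, in CPM of the class, with exact Poisson 95% intervals and the UMIs beside each point. Vsir climbs from 27.8 to 152.6 and Havcr2 from 0 to 55.4 across states, while Cd86 runs from 372.3 down to 59.4 and Pdcd1lg2 from 22.0 down to 2.12.

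The macrophage-like class was itself made of 7 sub-clusters whose shares changed. The sub-cluster led by Ccl4 and Ccl3 (172 cells) made up 36.7 and 20.3% of the class in Prepuberty and 8.49 and 9.33% in Tumor, and it held Cd86 at 625 CPM and Vsir at 37.7. The largest sub-cluster, led by Lyz2 and C1qa (303 cells), held Cd86 at 143, Vsir at 121 and Havcr2 at 43.0. Within this sub-cluster alone the same directions were seen when the libraries of a state were added up. Vsir was at 43.8 in Prepuberty, 89.3 in DCIS and 152 in Tumor, Havcr2 at 0, 17.9 and 64.3, and Cd86 at 190, 158 and 126. Fitted within it, no member passed: Vsir had a log2 fold change of 1.55 with an adjusted p of 0.129 for Tumor against Prepuberty. Within the Ccl4 and Ccl3 sub-cluster Cd86 was at 796, 670 and 105 CPM. The neutrophil marker list summed to 42.1 to 293 CPM in macrophage-like cells of 5 libraries and to 740 in Tumor 2, with Ly6g at 0, the T-cell list to 98.1 to 243 and the dendritic list to 149 to 252. Their part in these results was not tested.

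By mean over libraries, Cd80, Cd86 and Pdcd1lg2 were at their highest in dendritic-like cells, although in Tumor 1 the level of Pdcd1lg2 was higher in T-cell-like cells (67.5 against 15.5 CPM), which held 54.8% of its UMIs in Tumor. Only 4 libraries had 10 or more such cells, so the fits use Prepuberty 2, DCIS 1, DCIS 2 and Tumor 1, the lone Prepuberty and Tumor libraries are assumed to vary like DCIS, and the spread rests on 1 residual degree of freedom. For Tumor against DCIS, Cd86 and Pdcd1lg2 fell and Lgals9 passed as higher, against a background of 10.5% of 2860 genes (133 genes or 4.65% higher and 167 or 5.84% lower, and 248 and 159 without TMM factors, where the same 3 members passed in the same directions). The filter on low counts asked for 56.0 CPM in 1 library. Cd80 and Cd86 reached it in all 4 libraries. Pdcd1lg2 reached it in the 3 gland libraries alone, and Lgals9 and Havcr2 in Tumor 1 alone. Pdcd1lg2, Lgals9 and Havcr2 were thus tested because they are high on 1 side of the Tumor contrasts. The share of tested members that passed is therefore not read against the background. For Tumor against Prepuberty none passed (3 at an unadjusted p under 0.05, and none with DESeq2), against 4.02%. For DCIS against Prepuberty none passed (1 at an unadjusted p under 0.05, and none with DESeq2), against 0.0699%. With DESeq2 none of the 3 Tumor against DCIS calls held, and 2 of the 3 had no adjusted p there.

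Cd86 was at 624 CPM in Prepuberty 1 (19 UMIs in 7 cells), 409 in Prepuberty 2 (54 UMIs), 806 in DCIS 1 (154), 640 in DCIS 2 (106), 259 in Tumor 1 (50) and 92.7 in Tumor 2 (3 UMIs in 8 cells). Both Tumor libraries were below the other 4. For DCIS against Prepuberty the log2 fold change was 1.17 (SE 0.44, adjusted p 0.405). Against DCIS the log2 fold change in Tumor was -1.70 (SE 0.45, adjusted p 0.0327). Cd80, the B7-1 ligand (chromosome 16, 38455561 to 38496335, forward strand), was at 197, 371, 209, 290, 82.9 and 61.8 CPM in the same order of libraries (6, 49, 40, 48, 16 and 2 UMIs). Tumor was again lowest, with log2 fold changes of -1.79 (SE 0.54, adjusted p 0.0567) against DCIS and -2.02 (SE 0.59, adjusted p 0.0812) against Prepuberty, neither past the threshold. Without Prepuberty 2 the first passed (-1.77, adjusted p 0.0350).

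Pdcd1lg2 had no UMI in Prepuberty 1, and was at 60.5 CPM in Prepuberty 2 (8 UMIs), 115 in DCIS 1 (22), 103 in DCIS 2 (17) and 15.5 in Tumor 1 (3), with none in Tumor 2. It entered the test through the gland libraries alone, where it is high. It fell by 2.97 on the log2 scale from DCIS to Tumor (SE 0.74, adjusted p 0.0244). Lgals9, which encodes galectin-9, a sugar-binding ligand of TIM-3 (chromosome 11, 78962974 to 78984946, reverse strand), had 0, 1, 2 and 3 UMIs in the Prepuberty and DCIS libraries (0 to 18.1 CPM) but 25 in Tumor 1 (129.5) and 5 in Tumor 2 (154). Its log2 fold change for Tumor against DCIS was 2.93 (SE 0.86, adjusted p 0.0497), just inside the threshold, in a test it entered through the Tumor 1 library alone. With no filter on low counts it was 2.94 (adjusted p 0.00601), on the same lone Tumor library. For Tumor against Prepuberty it was 4.08 (SE 1.26, adjusted p 0.0979), on 1 Prepuberty UMI.

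The makeup of the class moved with these values. The class split into 58 cells led by Ccl22, Ccl17, Serpinb6b and Il4i1 and 70 others led by Serpinb6b, Pkib and H2-Aa. Ccl22 and Il4i1 are genes of mature dendritic cells, but Ccl22 and Ccr7, the receptor of migrating dendritic cells, were among the 10 leading genes of both sub-clusters, so the split does not part mature from other cells. The share of the Ccl22-led cells was 71.4, 65.2, 55.2, 41.4, 31.3 and 0% from Prepuberty 1 to Tumor 2. In Tumor 1 the 10 cells of that sub-cluster held Ccl22 at 313 and Il4i1 at 39.1 CPM, below the 3648 to 6257 and 695 to 1279 of the glands, whereas Ccr7 at 1915 and Fscn1 at 821 lay within the gland ranges of 499 to 3293 and 461 to 4358.

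Within each sub-cluster the Tumor values lay apart for some genes. In the Ccl22-led cells Cd86 was at 730, 538, 772 and 826 CPM in the Prepuberty and DCIS libraries and at 176 in Tumor 1 (9 UMIs in 10 cells). In the others it was at 0, 122, 860, 485, 289 and 92.7 from Prepuberty 1 to Tumor 2, so that both Tumor libraries were below DCIS there and Tumor 1 was above both Prepuberty libraries, which had 2 and 8 such cells. Lgals9 in the others was at 0, 0, 27.3 and 22.1 in the Prepuberty and DCIS libraries, and at 141 in Tumor 1 (20 UMIs) and 154 in Tumor 2 (5 UMIs). In the Ccl22-led cells Lgals9 was at 0 to 13.3 in the glands and at 97.7 (31.7 to 228) in Tumor 1, an interval that overlaps the 86.1 to 218 of the others there. Macrophage markers in dendritic-like cells summed to 398 to 1056 CPM in the Prepuberty and DCIS libraries and to 2030 and 1792 in Tumor, with none of 9 at 0. The summed macrophage list was 7679 to 19816 in macrophage-like cells. Plasmacytoid markers were at 0 in 5 libraries and at 1143 in Tumor 2, and 9.38% of dendritic-like cells in Tumor 1 had a T-antigen UMI. Their part in the dendritic results was not tested.

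**Figure D4:**
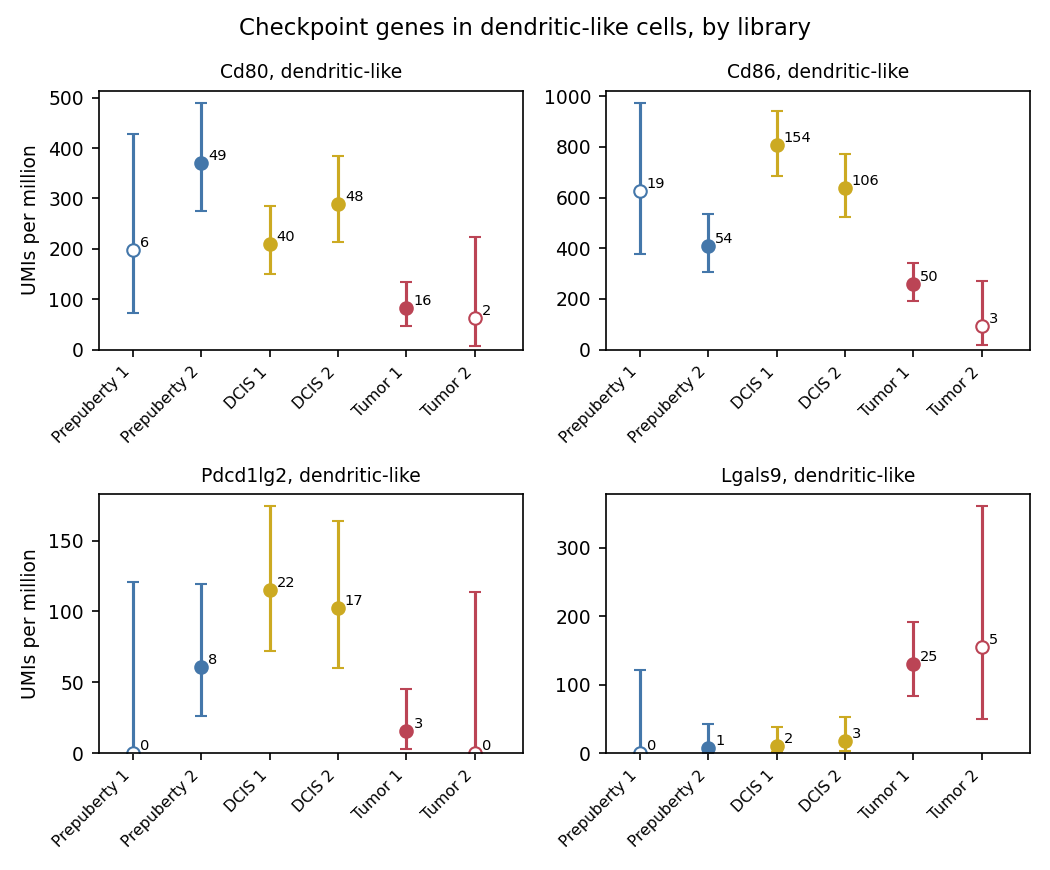
Levels of Cd80, Cd86, Pdcd1lg2 and Lgals9 in dendritic-like cells of each library, in CPM of the class, with exact Poisson 95% intervals and UMIs beside the points. Hollow points are libraries with fewer than 10 such cells, which the fits left out. Cd80 and Cd86 are lowest in Tumor, where Cd86 is at 259 and 92.7, Pdcd1lg2 is at 0 in Prepuberty 1 and Tumor 2, and Lgals9 is highest there, at 129.5 and 154.

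T-cell-like and B-cell-like cells carried some of the same ligands. Pdcd1lg2 in T-cell-like cells was at 13.6 CPM in Prepuberty 2 (3 UMIs), 61.4 in DCIS 1 (7), 18.1 in DCIS 2 (1), 67.5 in Tumor 1 (29 UMIs in 19 cells) and 16.0 in Tumor 2 (5), and the states overlapped. Cd86 in B-cell-like cells was at 106 in Prepuberty 2 (17 UMIs) and 102 in Tumor 1 (8 UMIs), the 2 libraries with 10 or more such cells. None of the 5 members tested in T-cell-like cells (Ctla4, Icos, Lgals9, Pdcd1lg2 and Vsir) passed with edgeR or DESeq2 in any contrast, and 1, Ctla4 for Tumor against Prepuberty, had an unadjusted p under 0.05. The backgrounds were 0% of 4284 genes for DCIS against Prepuberty, 0.21% for Tumor against DCIS and 0.117% for Tumor against Prepuberty.

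Vsir was also counted in endothelial-like and myoepithelial-like cells, and there its lowest levels were in Tumor. In endothelial-like cells it was at 43.1 and 34.1 CPM in Prepuberty (248 and 235 UMIs), 54.6 and 45.3 in DCIS (155 and 127 UMIs) and 23.1 and 21.5 in Tumor (18 and 6 UMIs). The 3 states did not overlap. From DCIS to Tumor Vsir fell by 1.50 on the log2 scale (SE 0.36, adjusted p 0.0309), the 1 call among 3 members tested, against a background of 13.7% of 10651 genes (771 genes or 7.24% higher and 687 or 6.45% lower, and 1241 and 416 without TMM factors, where Vsir was at -1.14 with an adjusted p of 0.0556). Leaving out DCIS 1, DCIS 2, Tumor 1 or Tumor 2 in turn each lost the call, with adjusted p-values from 0.0551 to 0.137. The makeup of the endothelial-like class also changed. Its cluster led by Ackr1 and Selp held 342 of 712 and 214 of 673 cells in Prepuberty. It held 268 of 426 and 176 of 356 in DCIS, but 7 of 78 and 4 of 34 in Tumor. Its part in the Vsir change was not tested. Myoepithelial-like cells, which had no fit, were at 43.8 and 83.4 in Prepuberty (24 and 65 UMIs), 93.3 and 87.1 in DCIS (121 and 390 UMIs) and 4.46 and 15.2 in Tumor (5 and 23 UMIs).

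The change of Vsir was compared between macrophage-like and endothelial-like cells in 1 model over both classes, a test added after the levels were seen. The Tumor against Prepuberty change was 2.56 higher on the log2 scale in macrophage-like cells (SE 0.48, adjusted p 0.00991 over 10352 genes, of which 3.11% passed). For Tumor against DCIS the difference was 1.61 (SE 0.44, adjusted p 0.0529, background 4.31%), and it passed without TMM factors (1.80, adjusted p 0.0293). For DCIS against Prepuberty, where the fitted change was above 0 in both classes, the difference was 0.95 (SE 0.42, adjusted p 0.461, background 0.415%). The library was kept as a block, since each library gives both sums. Macrophage markers in endothelial-like cells summed to 46.1 to 120 CPM. The part of the changed makeup of the endothelial-like class, given above, in this difference was not tested.

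Vsir in T-cell-like cells lay between 36.2 and 90.9 CPM with overlapping states. In fibroblast-like cells it lay between 4.30 and 20.1, highest in Tumor 2, and in epithelial-like cells between 1.24 and 5.47, again highest in Tumor 2 (114 UMIs). Ordered by mean over libraries, macrophage-like cells (86.0 ± 48.8 CPM, SD, n = 6), T-cell-like cells (59.0 ± 22.3, n = 5), myoepithelial-like cells (54.5 ± 38.9, n = 6) and endothelial-like cells (37.0 ± 13.1, n = 6) followed each other within 1 SD, and epithelial-like cells were lowest (3.02 ± 1.54, n = 6).

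Lgals9 was counted in every class. Its UMIs lay, in shares that follow the number of cells as well as the level, mainly in epithelial-like (26.4%), fibroblast-like (25.5%), endothelial-like (24.7%) and myoepithelial-like cells (9.86%). The highest mean levels were in endothelial-like (297 ± 117 CPM, SD, n = 6), myoepithelial-like (264 ± 151, n = 6) and pericyte- or smooth-muscle-like cells (190 ± 96.6, n = 5), which did not differ beyond their spread, followed by macrophage-like cells (150 ± 56.5, n = 6). Fibroblast-like (96.9 ± 38.3, n = 6) and epithelial-like cells (74.3 ± 41.4, n = 6) were below B-cell-like cells (104 ± 92.2, n = 2) within the spread, and the lowest mean was in dendritic-like cells (41.4 ± 58.9, n = 4).

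Tumor 2 stood below all other libraries for Lgals9 in every non-immune class with a fit. The study's methods name a later kit version for that tumor library alone, where the labels give all libraries the same kit. If the methods hold, kit and tumor cannot be told apart in any Tumor 2 value. That takes in those of Ctla4, Icos and Cd86 above and of Cd80 below. In endothelial-like cells the levels were 386.7, 332.3, 283.0, 320.2 and 385.8 CPM from Prepuberty 1 to Tumor 1 and 71.8 in Tumor 2 (20 UMIs). In fibroblast-like cells they were 128.4, 133.0, 98.9, 94.2 and 100.9, and 26.2 in Tumor 2 (125 UMIs). In epithelial-like cells they were 112.5 and 120.7 in Prepuberty, 34.8 and 47.3 in DCIS, 100.6 in Tumor 1 (3319 UMIs) and 30.0 in Tumor 2 (625 UMIs). Tumor 1 and Tumor 2 thus differed by more than Prepuberty and DCIS did in endothelial-like and fibroblast-like cells, and no contrast of Lgals9 passed in these classes. Without Tumor 1, which leaves Tumor 2 alone in its arm, Lgals9 passed for Tumor against Prepuberty in epithelial-like (-2.42, adjusted p 0.0142), fibroblast-like (-3.04, 0.00919), endothelial-like (-2.67, 0.0153) and macrophage-like cells (-1.80, 0.0241), and for Tumor against DCIS in fibroblast-like (-2.83, 0.00935) and endothelial-like cells (-2.71, 0.0157). Myoepithelial-like cells were at 368.7, 414.3, 309.1, 333.3, 131.0 and 29.1 CPM, both Tumor libraries below the glands.

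**Figure D5:**
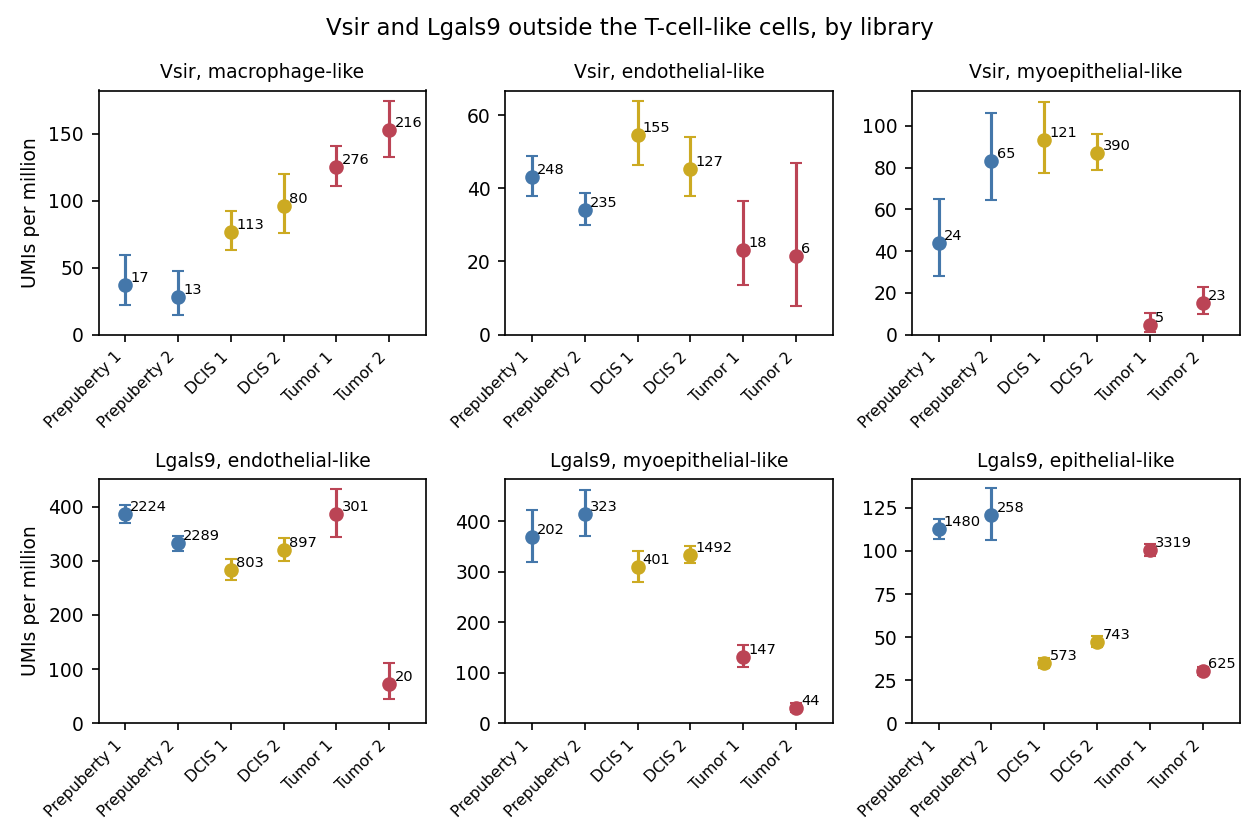
Vsir in macrophage-like, endothelial-like and myoepithelial-like cells (upper panels) and Lgals9 in endothelial-like, myoepithelial-like and epithelial-like cells (lower panels) of each library, in CPM of the class, with exact Poisson 95% intervals and UMIs beside the points. Vsir is highest in Tumor in macrophage-like cells (125.3 and 152.6) and lowest there in endothelial-like cells (23.1 and 21.5), and Lgals9 is at 71.8 in endothelial-like cells of Tumor 2 against 283.0 to 386.7 elsewhere.

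In epithelial-like and fibroblast-like cells no member passed in any contrast. Unnamed cells, which these classes leave out, held 23.3% of the Lgals9 UMIs of Tumor, 21.3% of those of Cd80 and 16.2% of those of Vsir. Of 3 members tested in epithelial-like cells (Lag3, Lgals9 and Vsir) and 4 in fibroblast-like cells (these and Cd80), none had an unadjusted p under 0.05 with edgeR, and none passed with DESeq2. The backgrounds for DCIS against Prepuberty, Tumor against DCIS and Tumor against Prepuberty were 0, 1.14 and 6.07% of 13322 genes and 0, 13.1 and 8.6% of 12095 genes. In endothelial-like cells none of 3 members passed for DCIS against Prepuberty (1, Vsir, at an unadjusted p under 0.05, log2 fold change 0.67, SE 0.28, adjusted p 0.422) or Tumor against Prepuberty (none at an unadjusted p under 0.05), by edgeR or DESeq2, against backgrounds of 0 and 11.9%.

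Cd80 had a second site in Tumor 2. There 37 epithelial-like cells held 79 Cd80 UMIs (3.79 CPM), against 0 to 7 UMIs in each other library, and 23 fibroblast-like cells held 29 UMIs (6.08 CPM, against 0.757 to 2.09 elsewhere). A further 48 UMIs lay in 43 unnamed cells of Tumor 2. Cd80 did not pass the low-count filter in epithelial-like cells. A T-antigen UMI was found in 29.6 and 44.6% of fibroblast-like cells of Tumor 1 and Tumor 2, against at most 0.626% in the glands. With these cells left out, again no member passed in fibroblast-like cells in any contrast. A T-antigen UMI was found in 71.8 and 56.4% of epithelial-like cells of Tumor 1 and Tumor 2. Its absence thus does not show that a cell lacks the T antigen, and such cells may remain.

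Other genes of the pathway, grouped in lists, were read beside the members. In T-cell-like cells 12 of 12 other receptors were tested and 1 fell from DCIS to Tumor, against a background of 0.21%. It was Tnfrsf9, which encodes the co-stimulator 4-1BB. It was at 809 CPM in Prepuberty 2, 850.5 and 1865 in DCIS and 147 and 150 in Tumor, with a log2 fold change of -3.15 (SE 0.49, adjusted p 0.0146). No gene of the lists of other ligands, regulatory T cells, T-cell exhaustion factors, mature dendritic cells or the interferon-gamma response passed in that class.

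In macrophage-like cells the other PD-1 ligand, Cd274, fell with Pdcd1lg2. Its level was 307 and 231 CPM in Prepuberty, 225 and 220 in DCIS and 21.3 and 7.77 in Tumor, with log2 fold changes of -4.38 for Tumor against DCIS and -4.55 for Tumor against Prepuberty. For Tumor against Prepuberty, where 1.96% of all genes tested in the class rose and 4.25% fell, 1 of 11 other ligands tested rose (Hmgb1, 1.37) and 2 fell (Cd274 and Cd40, -2.46). Of 7 mature dendritic cell genes 4 fell (Il4i1, Ccl22, Cd40 and Fscn1), and of 8 interferon-gamma response genes 5 fell (Gbp2, Cxcl10, Gbp4, Socs1 and Cxcl9, from -2.52 to -3.88). For Tumor against DCIS, with a background of 5.88%, 2 of 11 ligands fell, Cd274 and Nectin2 (-2.40), 1 of 7 mature dendritic cell genes fell (Ccl22, -3.34), and in the interferon-gamma list Ciita, the class II transactivator, rose (4.71) and Cxcl10 fell (-2.45). For DCIS against Prepuberty none of these passed, and the tested genes of the receptor, regulatory T cell and exhaustion lists passed in no contrast of this class.

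In dendritic-like cells 6 of 8 mature dendritic cell genes fell from DCIS to Tumor (Ccl22, Il4i1, Fscn1, Cacnb3, Relb and Socs2), in a contrast where 5.84% of all genes tested in the class fell and 4.65% rose and where reaching the filter in 1 library was enough to be tested. Ccl22, a chemokine that draws regulatory T cells, was at 2433 and 3318 CPM in DCIS, 140 in Tumor 1 and 0 in Tumor 2. In the same contrast 3 of 10 other ligands fell (Cd200, Cd274 and Cd70) and 1 rose (Lgals3, 1.55), 2 of 5 other receptors fell (Tnfrsf9 and Pdcd1), and both tested regulatory T cell genes fell (Il2ra and Ikzf4). Fitted folds of -8.07 for Cd70, -7.01 for Pdcd1 and -6.78 for Ikzf4 put Tumor 1 near 0, so their size has little base. Genes so low in Tumor 1 entered the test only through the glands. Of the 7 genes of the regulatory T cell list only 2 were tested here, in dendritic-like cells, which is no measure of regulatory T cells. Cd274 was at 293 and 259 CPM in DCIS and 20.7 in Tumor 1 (4 UMIs). Of the T-cell exhaustion list 1 of 4 rose (Nr4a1, 3.99), which encodes an immediate early nuclear receptor.

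Among the other ligands in fibroblast-like cells, Cd200 rose (2.89) and Tnfsf9, Cd274 and Cd40 fell from DCIS to Tumor, 4 of 15 tested. In endothelial-like cells Cd40 rose (3.24) and Cd274 and Pvr, a ligand of TIGIT, fell (-3.64 and -1.52), 3 of 12 tested. The backgrounds for Tumor against DCIS were the 13.1 and 13.7% given above for these classes. Tnfrsf9, lower in T-cell-like and dendritic-like cells of Tumor, was the 1 of 3 other receptors that rose in fibroblast-like cells. It was at 0.464 and 0.676 CPM in Prepuberty, 1.50 and 0.432 in DCIS and 27.3 and 162 in Tumor. The log2 fold changes were 5.89 (adjusted p 0.0117) against DCIS and 6.76 (adjusted p 0.00959) against Prepuberty, where the background was 8.6%. The filter asked for 1.37 CPM in 2 libraries, and of the glands DCIS 1 alone reached it. Tnfrsf9 was thus tested because it is high in Tumor, and its call is not read against the background. The Tumor fibroblast-like cells are those with a T-antigen UMI in 29.6 and 44.6% of cells. With such cells left out Tnfrsf9 still passed, at 6.33 (adjusted p 0.0176) and 7.20 (adjusted p 0.0150). So did Cd200 for Tumor against DCIS, at 2.98 (adjusted p 0.0308). Cells without a detected T-antigen UMI may still express it, so this cannot tell in which cells the changes lie. In epithelial-like cells Tnfrsf18, which encodes GITR, was the 1 of 4 other receptors that rose from Prepuberty to Tumor (5.27), against a background of 6.07%. In the same contrast 1 of 15 other ligands, Ceacam1, fell (-2.25). So did 1 of 8 genes of the T-cell exhaustion list, Entpd1 (-3.91), which encodes the ectonucleotidase CD39. The epithelial-like cluster led by Tph1 and Cxcl15 held 300 of 795 and 39 of 107 such cells in Prepuberty. In Tumor it held 6 of 2106 and 40 of 1046, and its part in these changes was not tested.

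The genes whose levels were most like each member were read over 49 sums of a class in a library with at least 20 cells, by Pearson r over 15335 genes, as a description with no test. The sums share libraries and depth. Ctla4 was most like Cd6, Sh2d1a and Izumo1r (r = 0.963, 0.963 and 0.960), and Icos most like Pdcd1, Cd28 and Trat1 (0.932, 0.920 and 0.920). Cd86 was most like Bcl2a1a (0.952), whose reads may be shared with near-identical copies, and among single-copy genes like H2-Aa (0.936). Pdcd1lg2 was most like Samsn1 (0.892), Cd80 like Myo1g (0.847), Havcr2 like Trem1 (0.818), Lgals9 like Rbpms (0.738), Lag3 like Arhgdib (0.642) and Vsir like Lcp2 (0.614). Tigit had too few UMIs for this.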

How the data were processed

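The authors deposited raw UMI counts per gene and barcode in 10x matrix form, made with Cell Ranger 3.0.2, and the submitters' notes list mm10 without its role. The labels give the v2 kit for all libraries, the study's methods v3 for Tumor 2. From these counts, cells with under 200 genes or over 10% mitochondrial UMIs were removed, as were the highest doublet scores at 0.8% per 1000 cells (Python 3.11.15, scanpy 1.11.5, numpy 2.4.6, scipy 1.17.1). Libraries were integrated and clustered in Seurat 5.3.0 (R 4.3.3) on 2000 variable genes without the members and the other listed receptors and ligands, 20 dimensions and resolution 0.8, and clusters with Ptprc in at least 25% of cells were divided again. A cluster needed at least 3 markers of its name, each in 25% of its cells and at least 2-fold above the rest. Division and naming details were chosen after clusters were seen.

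UMIs were summed per class and library with at least 10 cells. Each class had 1 edgeR 4.0.16 model of the 3 states (limma 3.58.1, TMM factors, filterByExpr, two-sided quasi-likelihood F test, Benjamini-Hochberg over all genes tested, threshold 0.05). DESeq2 1.42.0 and the other settings of the closing section were alternatives. All 10 members are named, and a fold change is printed where the unadjusted p was under 0.05, for Icos, for Vsir beside its calls, and where leaving out a library made a call. The exception is Havcr2 in dendritic-like cells, where Prepuberty is at 0. The other lists were receptors, ligands, regulatory T cells, T-cell exhaustion factors, mature dendritic cells and interferon-gamma response. The result of the last list in dendritic-like cells for Tumor against DCIS is not reported here. Members and lists were chosen with earlier results of these data known. The tests were tried on simulated data first. Library depth limits low genes: a floor of 3 counts is 6.59 CPM in Prepuberty 1 macrophage-like cells. Coordinates are from GENCODE genes on GRCm38, promoter sequences from RefSeq (7 of 10 members matched).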

Additional observations from a re-analysis of the deposited data

Results flagged for a closer look

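Vsir was the 1 gene singled out, because its change between states differed between cell classes by a test of the difference itself. The Tumor against Prepuberty change was 2.56 higher on the log2 scale in macrophage-like than in endothelial-like cells (SE 0.48, adjusted p 0.00991, edgeR quasi-likelihood F test over 10352 genes). Both Tumor libraries were above both Prepuberty libraries in macrophage-like cells (125.3 and 152.6 against 37.3 and 27.8 CPM) and below them in endothelial-like cells (23.1 and 21.5 against 43.1 and 34.1). Without TMM factors the difference was 2.82 (SE 0.50, adjusted p 0.00365). The test was chosen after the levels were seen, and the Tumor endothelial-like values rest on 18 and 6 UMIs. The Ackr1 and Selp cluster held 342 of 712 and 214 of 673 endothelial-like cells in Prepuberty, against 7 of 78 and 4 of 34 in Tumor. Its part in the difference was not tested.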

How the results depend on the processing

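Of 329 alternative counts of members past the threshold, 291 stayed within 1.5 times the reported count. Most of the 18 reported counts were 0, and a 0 that stayed 0 is among the 291. The Tumor against Prepuberty calls in macrophage-like cells were lost in 6 of 20 alternatives (Vsir), 4 of 20 (Havcr2) and 6 of 18 (Pdcd1lg2). The Tumor against DCIS call of Vsir in endothelial-like cells was lost in 6 of 19. Those in dendritic-like cells were lost in 4 of 14 (Cd86), 4 of 13 (Lgals9) and 2 of 13 (Pdcd1lg2). Where a cause is not evident from the setting, the cause was not tested. In macrophage-like cells the 3 calls for Tumor against Prepuberty became 1 (Vsir) in cells with a UMI of a defining marker and 0 in the largest sub-cluster, which holds fewer cells. For Tumor against DCIS there were 2 calls without a filter on low counts (Cd86, Pdcd1lg2) and 1 each with more doublets removed, no integration or checkpoint genes among the variable genes (each Pdcd1lg2), and for DCIS against Prepuberty 1 without a filter (Havcr2). In dendritic-like cells the 3 calls for Tumor against DCIS became 0 with DESeq2, with sums thinned to the smallest library or with more doublets removed, and 1 in cells with a defining marker (Pdcd1lg2). For Tumor against Prepuberty there were 2 calls with RLE size factors or no filter, and 1 each with no TMM factors, libraries of at least 5 cells, no integration or checkpoint genes among the variable genes. In endothelial-like cells the Vsir call for Tumor against DCIS became 0 without TMM factors or with thinned sums, and with thinned sums its DCIS against Prepuberty log2 change turned to -0.064. Without a filter, epithelial-like cells had 1 call for DCIS against Prepuberty (Lgals9) and 2 for Tumor against Prepuberty (Lgals9 and Cd80), and 1 in fibroblast-like cells in each Tumor contrast (Lgals9).

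Leaving out each library in turn gave 0 to 5 members in macrophage-like cells for Tumor against Prepuberty, 0 to 2 for Tumor against DCIS, 4 in dendritic-like cells for Tumor against DCIS without Prepuberty 2, and 0 to 1 in epithelial-like cells for Tumor against Prepuberty, in fibroblast-like and endothelial-like cells for both Tumor contrasts, where a lone library was assumed to vary like the others. All other such counts were 0.

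With the replicate number as a block, 1 member (Ctla4) passed in T-cell-like cells for Tumor against Prepuberty and 1 (Cd86) in macrophage-like cells for Tumor against DCIS. Deviations of same-numbered libraries correlated at -0.06 to 0.36, over 0.1 for every pair in fibroblast-like cells only, where the block changed no count of members. In the other classes the numbers do not pair the libraries. No paired analysis was possible because of single-library arms in dendritic-like cells.

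Mean shares of cells with a UMI depend on depth. Unthinned they were 12.9% for Havcr2, 29.6% for Pdcd1lg2, 57.5% for Cd80 and 79.3% for Cd86 in dendritic-like, 64.7% for Lgals9 in endothelial-like, 32.9% for Vsir in macrophage-like and 0.689% for Tigit in T-cell-like cells. Thinned to 1000 UMIs, with cells under 1000 UMIs left out, they were 6.40% for Pdcd1lg2, 19.2% for Lgals9, 7.60% for Vsir, 19.96% for Icos and 0% for Tigit. Without TMM factors, which was chosen after seeing the data like the limit of 5 cells, the largest sub-cluster and 1000 UMIs, the median of all genes for Tumor against DCIS moved to 0.64 in macrophage-like, 0.85 in fibroblast-like, 0.51 in epithelial-like, 0.35 in endothelial-like and 0.22 in dendritic-like cells.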

Other observations

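The T-cell-like class fell into 5 sub-clusters, and the smallest but 1, with 23 cells led by Tnfrsf4 and Ikzf2 beside Ctla4 and Icos themselves, held Ctla4 at 290 and Icos at 432 CPM. The other sub-clusters lay between 47.7 and 121 for Ctla4 and between 157 and 353 for Icos. These levels describe the clusters and have no test.

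A macrophage-like sub-cluster led by Gpnmb and Lepr was made almost entirely of DCIS cells (21 in DCIS 1 and 19 in DCIS 2, with 1 in Prepuberty 2). It held Vsir at 161 CPM, close to the 152 of the Lyz2 and C1qa sub-cluster in Tumor, and in DCIS no Pdcd1lg2 UMI. With 41 cells its levels are a description only.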
